A study of Mus musculus with 19 samples.

Results

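The genes described here are the Srsf, Hnrnp, Rbm and Zc3h families, which were taken as every row of the 2 count tables whose symbol begins with one of those 4 prefixes. They number 96 of 20436 genes, with 11 Srsf, 20 Hnrnp, 46 Rbm and 19 Zc3h members. Within them Rbm39 and Zc3h13 were chosen by their ribosome-protected fragments (RPFs), which were lower after DHPG in these same libraries, so their RPF values after DHPG are given as a description, with no test. The samples were acute hippocampal slices of wild-type male mice aged 28 to 42 days, prepared without cutting off CA3, with slices of 6 mice pooled in each library. Slices received 100 µM DHPG, an agonist of group I metabotropic glutamate receptors, or the vehicle ACSF (basal) for 5 min, and cycloheximide at 100 µg/ml was applied to all of them to hold ribosomes in place. RNA-seq was available for 4 basal and 5 DHPG libraries (the DHPG library of replicate 5 had no basal partner), and RPFs for 5 basal and 5 DHPG libraries.

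Most of the 96 genes encode proteins that bind pre-mRNA in the nucleus. SR proteins (Srsf) bind exonic sequences through RNA recognition motifs and recruit the spliceosome through domains rich in arginine and serine. The hnRNPs coat nascent transcripts and often act against exon inclusion, and several of them also accompany mRNA into the cytoplasm. The Rbm prefix marks only an RNA recognition motif and gathers spliceosome components, tissue-specific splicing regulators and subunits of the m6A writer complex, which methylates adenosines in mRNA. The Zc3h prefix marks a CCCH zinc finger in most members, though not in Zc3hc1, and gathers among others factors of RNA methylation, polyadenylation and decay. In hippocampal neurons, alternative splicing sets the isoforms of many receptors and adhesion molecules, and several hnRNPs travel with mRNA granules into dendrites.

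A read of a ribosome footprint is short, and many members have processed pseudogenes, so some footprints cannot be placed on 1 gene. Windows of 30 nt were therefore taken along the counted coding sequence of each member (GENCODE M21, GRCm38) and looked up in the transcripts of all other loci. No window was shared for 56 members, more than 10% of windows were shared for 32, and more than 50% for 18. The sequences below are shown because they mark how far a footprint can tell a member from its copy. In the first pair, from a coding exon of Rbm39 (chr2:156172925-156172954, minus strand) and its processed pseudogene Gm15575 (chr16:38750040-38750069, minus strand), the capital is the 1 base that differs. In the second pair, from Srsf3 (chr17:29038510-29038539, plus strand) and the processed pseudogene Gm9761 (chr3:116561171-116561200, minus strand), the capital again marks the differing base. The third pair, from Hnrnpa3 (chr2:75659348-75659377, plus strand) and the processed pseudogene Gm11847 (chr4:12232863-12232892, plus strand), holds no difference.
Rbm39: gaagtagagaTagagaaaggaaaaagagca
Gm15575: gaagtagagaCagagaaaggaaaaagagca
Srsf3: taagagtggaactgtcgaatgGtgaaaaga
Gm9761: taagagtggaactgtcgaatgAtgaaaaga
Hnrnpa3: cagcctgactccggccgtcgccgccgccgc
Gm11847: cagcctgactccggccgtcgccgccgccgc

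For Hnrnpa3 100% of the windows occurred at another locus, for Srsf3 99.3%, for Hnrnpk 86.7% and for Rbm39 7.78%. Zc3h13 shared none. Only uniquely mapped reads were kept by the authors, so RPF counts of members with many shared windows are uncertain. Windows of 60 nt along the whole transcript were looked up as well, since RNA reads are longer. Of these, 90.4% were shared for Hnrnpa3, 35.7% for Hnrnpk, 28.5% for Srsf3 and 0% for Rbm39. RNA counts of such members are thus uncertain to a lesser and differing degree.

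Total counts ran from 4870813 to 7793244 in the RNA libraries and from 5692064 to 22092434 in the RPF libraries. The members took 0.313% to 0.478% of the RNA counts and 0.842% to 1% of the RPF counts. Libraries of replicates 2 and 3 stood apart from those of replicates 1 and 4. In basal RNA the members summed to 3403 and 3229 CPM (counts scaled to a common library size, with TMM factors) in replicates 2 and 3 and to 4770 and 4681 in replicates 1 and 4. The Hnrnp family carried most of this, with 1382 and 1274 CPM against 2248 and 2092. All 20 Hnrnp genes had a lower mean log2 level in replicates 2 and 3 of basal RNA, with a median of 0.521 times the level in replicates 1 and 4, where the median over all 12935 genes was 1. DHPG libraries of the same replicates were split in the same way (0.562 times for the Hnrnp median), so the split lies between replicate numbers and not between treatments. In RPF the same Hnrnp median was 0.933 in basal libraries. Across all genes the RNA difference between these replicates went with the GC content of the transcript (Spearman's rho 0.663 over 12878 genes in 4 libraries, a description). The part of base composition in the members' levels was not tested.

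**Figure D1:**
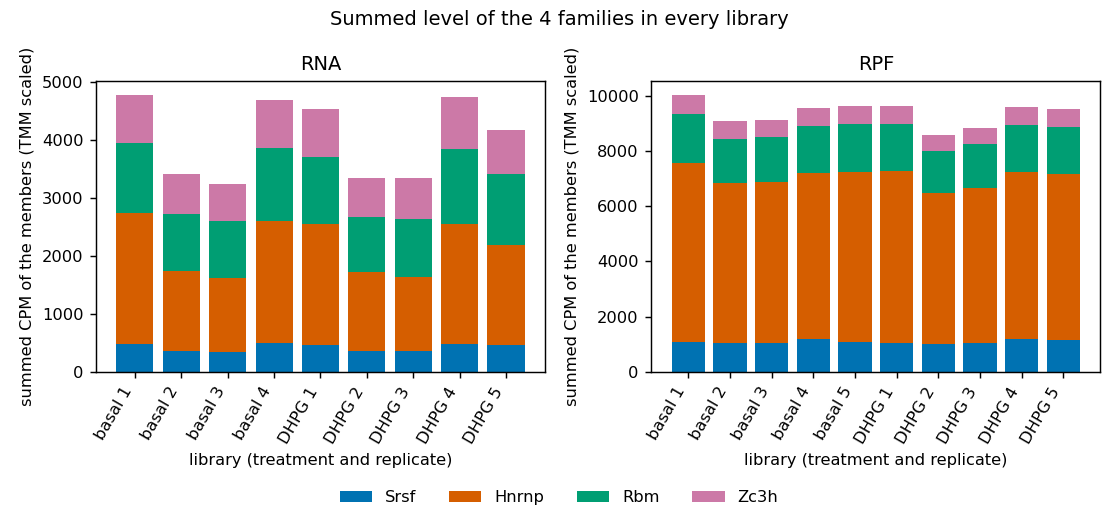
Summed CPM of the Srsf, Hnrnp, Rbm and Zc3h members (stacked bars, y axis from 0) in each RNA library (left) and each RPF library (right), by treatment and replicate on the x axis. RNA sums are lowest in replicates 2 and 3 of both treatments (3229 to 3403 CPM in all), while RPF sums lie between 8598 and 10047 CPM.

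Basal levels per kb of counted length placed the Hnrnp family highest. The median member had 23.4 CPM per kb in RNA for Hnrnp, 19.3 for Srsf, 6.33 for Zc3h and 5.52 for Rbm, against 10.5 over all genes tested. In RPF the medians were 195 CPM per kb for Hnrnp, 137 for Srsf, 14.4 for Rbm and 9.03 for Zc3h, against 17.7 over all genes. The RNA of highest level was Hnrnpl, which binds CA repeats, at 144 ± 8.95 CPM per kb (SD, n = 4), and Hnrnpk, which binds C-rich RNA, followed at 111 ± 40.5, a difference within the spread of Hnrnpk. Among SR proteins Srsf5 led at 59.2 ± 22.9 CPM per kb, and Srsf9 and Srsf6 followed at 34.3 ± 3.18 and 26 ± 1.61, with steps only slightly larger than the spread of Srsf5 and more than the spread of the lower pair. Of the Rbm family Rbm42 had 57.9 ± 7.07 CPM per kb, the cold-inducible Rbm3 had 40.5 ± 6.1 and Rbm39 had 29 ± 13.9, so Rbm39 stood next after these among 39 members tested. Zc3h14, which binds poly(A) tails, led its family at 44.2 ± 10.3, next to Zc3h7b at 43.4 ± 2.31, a pair that did not differ beyond its spread, and Zc3hc1 came next at 25.9 ± 2.06. The lowest RNA levels tested in each family were 3.27 CPM per kb for Srsf12, 1.35 for Hnrnph3, 0.51 for Rbm20 (a regulator of titin splicing in muscle) and 0.332 for Zc3hav1l. In bulk slices, fewer cells of a type and less RNA per cell cannot be told apart.

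The families differed in how many RPFs they held for their RNA. The basal ratio of a gene was its RPF level over its RNA level, both per kb of counted length, on the log2 scale with the median gene at 0. The family median over 4 replicates was 2.39 ± 0.25 for Hnrnp (5.23 times the median gene), 1.77 ± 0.19 for Srsf (3.41 times), 0.74 ± 0.10 for Rbm (1.67 times) and -0.12 ± 0.08 for Zc3h (0.922 times). In each of the 4 replicates the order was Hnrnp, Srsf, Rbm, Zc3h, with Hnrnp medians of 2.19, 2.51, 2.68 and 2.17 and Zc3h medians of -0.24, -0.06, -0.07 and -0.11. In edgeR's test of RPF against RNA at an adjusted p of 0.05, 78.3% of 12831 genes differed from the median gene (39.2% higher and 39.1% lower), and 79.7% had an unadjusted p under 0.05 (39.8% higher and 39.9% lower). Of the 89 members tested, 55 were higher and 19 lower by either p. The higher ones were 10 of 11 Srsf, 18 of 20 Hnrnp, 23 of 40 Rbm and 4 of 18 Zc3h members. The 18 Zc3h members include Zc3h8, which had too few counts in RNA and passed the filter through its RPFs. Without replicates 2 and 3, a choice made after the data were seen, the medians were 2.18, 1.64, 0.70 and -0.17. Restricted to members with at most 10% shared windows, also chosen then, the Srsf median was 1.17.

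**Figure D2:**
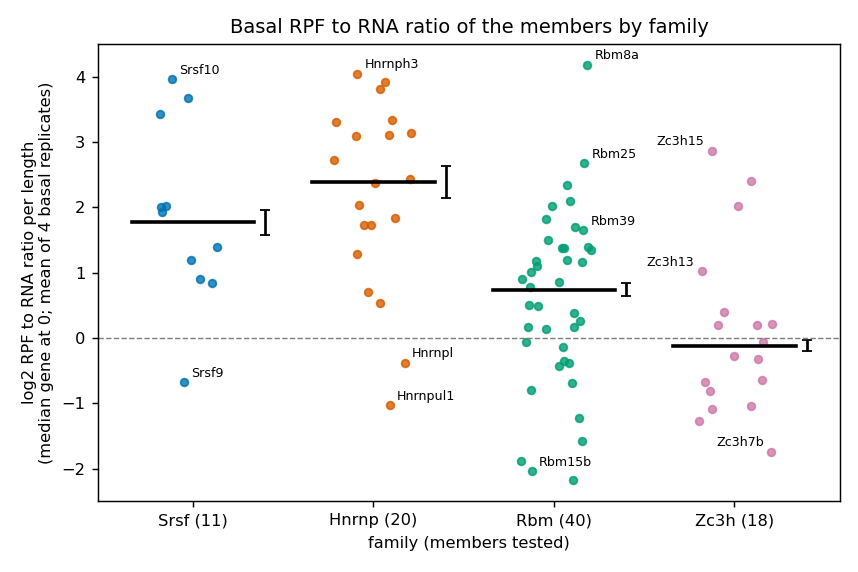
Basal log2 RPF to RNA ratio per length (y axis, median gene at 0, mean of 4 basal replicates) of the members tested in each family (x axis), 1 point per gene. Black bars are the family median averaged over 4 replicates, and the error bar beside each is its SD. The Hnrnp bar lies at 2.39 and the Zc3h bar at -0.12.

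Among SR proteins the ratio ran over more than 4 log2 units. Srsf10, whose dephosphorylated form represses splicing, had the highest ratio (3.96 ± 0.41, SD, n = 4, adjusted p = 2.21e-07 in edgeR). Its RNA had 17.2, 15.2, 12.9 and 19.8 CPM in the 4 basal libraries and its RPFs 56, 81.8, 73.8, 66.2 and 60.1 CPM in the 5 basal ones. Of its counted coding windows 87% occurred at another locus, so its RPF counts and its ratio are uncertain. Srsf3, which also couples splicing to mRNA export, followed at 3.68 ± 0.42. Srsf6 was second lowest at 0.84 ± 0.11. Srsf9 was the 1 Srsf member below the median gene, at -0.68 ± 0.23 (adjusted p = 0.0011). Its RNA, at 35, 42.7, 42.8 and 39 CPM, lay above that of Srsf10 in every basal library. Its RPFs, at 19.1, 21.9, 20.5, 26.3 and 21.3 CPM, lay below those of Srsf10 in every one.

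In the Hnrnp family 18 members stood above the median gene and 2 below it. Hnrnph3, a member of the group that binds runs of G, had a ratio of 4.04 ± 0.86, but only 4.42, 1.63, 1.09 and 4.56 CPM in basal RNA. Hnrnpd, which binds AU-rich elements and acts in mRNA decay, had 3.92 ± 0.97. Its RNA was 36.2, 9.97, 8.26 and 18.8 CPM in the 4 basal libraries while its RPFs kept to 216, 224, 228, 208 and 218 CPM. Hnrnpu, a chromatin-bound scaffold, behaved likewise, with 240, 106, 85.2 and 199 CPM in RNA and 690 to 773 in RPF. In Hnrnph3, Hnrnpd and Hnrnpu the RNA of replicates 2 and 3 was lowest, while their RPFs varied less between libraries. Hnrnpl (-0.38 ± 0.17, adjusted p = 0.00915) and Hnrnpul1, a relative of Hnrnpu (-1.03 ± 0.11, adjusted p = 2.48e-05), were the pair below the median gene. Hnrnpl had 319, 281, 324 and 308 CPM in basal RNA, so replicate 2 was the lowest and replicate 3 the highest. By subgroup the median ratio was 3.13 for the 7 A, B and D types, 2.93 for 4 F and H and 1.91 for 3 C, M and R types. It was 1.72 for 3 U and 0.54 for 3 K and L types. The ranges of these small subgroups overlapped. Members ran from 0.70 to 3.92 in A, B and D, 1.28 to 4.04 in F and H and 1.73 to 3.09 in C, M and R. In U they ran from -1.03 to 3.30 and in K and L from -0.38 to 2.03.

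The Rbm family spanned the widest range. Rbm8a, the Y14 subunit of the exon junction complex, had the highest ratio of all 89 members (4.18 ± 0.44, adjusted p = 2.1e-07), with 13.9, 7.93, 9.97 and 16.2 CPM in basal RNA and 60.9 to 66.5 in basal RPF. Its coding sequence shared 50.5% of its windows with other loci, mostly with Rbm8a2. Rbm25, which associates with the U1 snRNP, followed at 2.68 ± 0.41 and shared none. At the other end lay Rbm14-rbm4 (-2.18 ± 0.46), a readthrough of adjacent genes whose reads overlap those of Rbm14 and Rbm4, so its value is uncertain. Rbm15b, which recruits the m6A writer to its RNA targets, had -2.04 ± 0.37 (adjusted p = 2.78e-06). Its basal RNA was 104, 116, 142 and 119 CPM against 18.5, 17.9, 16.7, 25.1 and 22.1 CPM in RPF. Of 12 Rbm members grouped as splicing factors the median was 1.01 ± 0.29. In edgeR's test 7 of the 12 were higher and 2 lower than the median gene, beside 39.2% and 39.1% of all genes.

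In the Zc3h family the ratio was centred on the median gene. Zc3h15, a partner of the translation-associated GTPase Drg1, had the highest ratio (2.86 ± 1.0), with 39.1, 11.8, 10.6 and 36.6 CPM in basal RNA and 139 to 163 in RPF, and 57.6% of its windows occurred at a pseudogene. Zc3h8, a subunit of the little elongation complex, had 2.39 ± 0.83. Its RNA counts were too few for the RNA test, and its RPFs carried it past the count filter. A high ratio thus follows in part from its inclusion and is not read as a result. Zc3h12b, of the Regnase ribonucleases, had -1.27 ± 0.34. Zc3h7b had the lowest ratio (-1.75 ± 0.20, adjusted p = 1.68e-06), with 267, 251, 244 and 235 CPM in RNA and 56.1, 62, 63, 69.5 and 59.6 in RPF. Across the 89 members the ratio went weakly with the share of shared windows (Spearman's rho 0.215) and against GC content (-0.256, beside -0.242 over all 12831 genes). These points share libraries. The median ratio was 2.02 in the 17 members with over 50% shared windows and 0.90 in the 51 with none.

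After DHPG no member passed the RNA threshold. In edgeR with replicate number as a block, 0.00773% of 12935 genes passed an adjusted p of 0.01 and 0 of 87 members tested did. An unadjusted p under 0.05 was found for 8.02% of all genes and for 5 members, of which 3 were higher (5.2% of all genes) and 2 lower (2.81%). DESeq2 with the block called 0 members, and DESeq2 after ComBat called 1, Zc3h7b, of the 23 to which it gave an adjusted p, beside 2.34% of all genes that had one. The family medians of the log2 fold change were -0.03 for Srsf, -0.03 for Hnrnp, 0.01 for Rbm and 0.01 for Zc3h, beside 0.01 over all genes, and 45 of 87 members lay below 0, beside 47.9% of all genes. The Srsf median had the opposite sign without the block (0.02) and with the trend in GC content and length removed (0.03). With 1 replicate left out the RNA median ranged from -0.06 to 0.004 for Hnrnp, from -0.01 to 0.01 for Rbm and from -0.04 to 0.06 for Zc3h, so none of these 3 kept its sign.

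The same direction in all 4 RNA pairs was seen for 5 members with higher RNA (8.08% of all genes) and 8 with lower RNA (7.63%). Zc3h7b had the smallest p of the higher ones, with a log2 fold change of 0.21 ± 0.07 (SE) and an adjusted p of 0.538. It had 308, 267, 288, 286 and 232 CPM after DHPG. The first 4 of these lay above their basal partners, and the unpaired DHPG library lay below all 4 basal ones. Rbm33 (0.22), Srsf4 (0.24), Srsf9 (0.15) and Srsf2 (0.15, a protein of nuclear speckles) followed with adjusted p from 0.558 to 0.688. In the other direction stood Rbm43 (-0.32 ± 0.13, SE, adjusted p = 0.573), Hnrnpc, which binds U tracts (-0.18), Hnrnpab (-0.16), Rbm14-rbm4 (-0.18) and Rbm45 (-0.17). Rbm43 had 13.8, 12.8, 13.2 and 14.2 CPM in basal RNA and 11.1, 11.2, 9.42, 11.5 and 10.8 after DHPG. It was the 1 member of 87 whose RNA libraries did not overlap with DHPG lower, beside 0.387% of all genes, and its RPFs overlapped (log2 fold change -0.06).

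In RPF the members lay mostly just below 0. The family medians of the log2 fold change were -0.02 for Srsf, -0.04 for Hnrnp, -0.04 for Rbm and -0.06 for Zc3h, beside 0.00 over all genes. Of 91 members tested 68 lay below 0, beside 48.6% of all genes, namely 7 of 11 Srsf, 18 of 20 Hnrnp, 29 of 42 Rbm and 14 of 18 Zc3h members. In every one of the 5 pairs the DHPG library was lower for 14 members (4.78% of all genes) and higher for 0 (5.04%). By pair the median over the members was -0.05, -0.07, -0.05, -0.02 and -0.03. The family medians were also below 0 in each pair, except Hnrnp in pair 4 (0.014) and Srsf in pair 5 (0.07). The differences were small, with quartiles of -0.07 and 0.005 over the members. An unadjusted p under 0.05 was found for 14 lower members (4.21% of all genes) and 1 higher one, Srsf2 (6.55%). Since this contrast chose Rbm39 and Zc3h13, these counts are given as a description of the same libraries. The Zc3h median was -0.00 without replicates 2 and 3, -0.03 without replicate 2 and -0.03 with the trend in GC content and length removed. With that trend removed the Rbm median was -0.03, and the Srsf median was -0.05 without replicate 5 and -0.01 without replicates 2 and 3. Across 87 members the fold change went with GC content of the coding sequence (rho 0.371, beside 0.236 over 13155 genes).

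**Figure D3:**
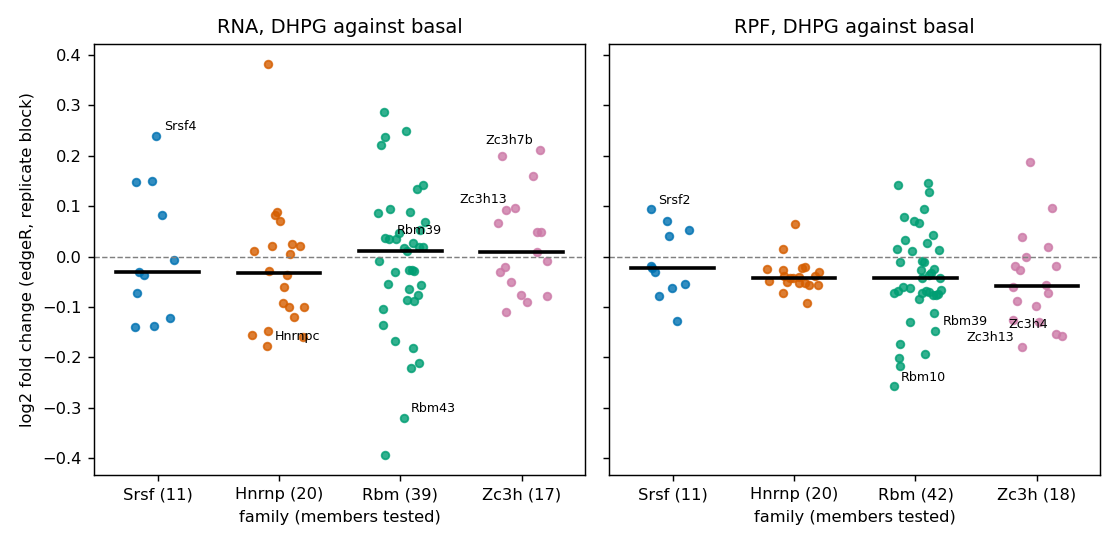
Log2 fold change of DHPG against basal (y axis, edgeR with the replicate block) of each member tested in RNA (left) and in RPF (right), by family on the x axis. Points are genes and black bars the family medians. RNA medians lie between -0.03 and 0.01 and RPF medians between -0.06 and -0.02.

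Rbm39 and Zc3h13 were chosen as the members inside the edgeR threshold of 0.05 in this contrast, so their count is fixed by the choice and nothing is read from it (2 of 91, both lower, beside 0.0379% of all genes lower, 0.182% higher and 0.22% in either direction). In log2 fold change, Rbm39 (-0.15) and Zc3h13 (-0.18) stood inside the threshold. Next in order of adjusted p, all outside the threshold, were Rbm10 (-0.26, adjusted p = 0.0807 in edgeR), Hnrnpa3 (-0.09, 0.201) and Zc3h4 (-0.15, 0.222). Of the counted coding windows of Rbm10, 70% occurred at another locus, so its counts are uncertain. Rbm10 RPFs were 24.8, 20.6, 21.9, 28.8 and 22.6 CPM in basal and 20.2, 18.9, 15.6, 23.2 and 21.9 after DHPG, lower in every pair with overlapping groups. Hnrnpa3 and Zc3h4, a factor that ends transcription of non-coding RNA, were also lower in all 5 pairs. Neither Rbm39 nor Zc3h13 was inside the threshold without the block, without replicate 1 or without replicate 2, with log2 fold changes of -0.15, -0.14 and -0.14 for Rbm39 and -0.18, -0.18 and -0.16 for Zc3h13. Rbm39 was also outside it with the trend in GC content and length removed (-0.11), and Zc3h13 without replicate 5 (-0.16).

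Rbm39 encodes a splicing coactivator related to the U2AF large subunit, and it is the protein that aryl sulfonamide drugs send for degradation. The gene lies on chromosome 2 of GRCm38 from 156147239 to 156180238 on the minus strand. Its RPFs were 211, 214, 221, 203 and 207 CPM in the 5 basal libraries and 183, 191, 199, 192 and 189 after DHPG. Every DHPG library lay below every basal one, which held for 1 of 91 members and 0.257% of all genes. The log2 fold change was -0.15 (standard error 0.03), with pairs from -0.20 to -0.08. Its RNA was 106, 56.3, 35.5 and 109 CPM in basal and 89.4, 52.3, 49.8, 115 and 109 after DHPG. The RNA groups overlapped over almost their whole range, and replicates 2 and 3 were the lowest in both. In the fit the RNA differed by 0.03 ± 0.09 on the log2 scale (SE), with an adjusted p of 0.956 and 2 of 4 pairs higher, and by -0.08 without replicate 3. Rbm39 had a basal ratio of 1.65 ± 0.80, with 1.05 and 0.96 in replicates 1 and 4 and 1.95 and 2.65 in replicates 2 and 3, and its rank was 8 of 40 Rbm members. Its RPF level per kb was 138 ± 4.49 CPM (SD, n = 5), with rank 3 of 42.

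**Figure D4:**
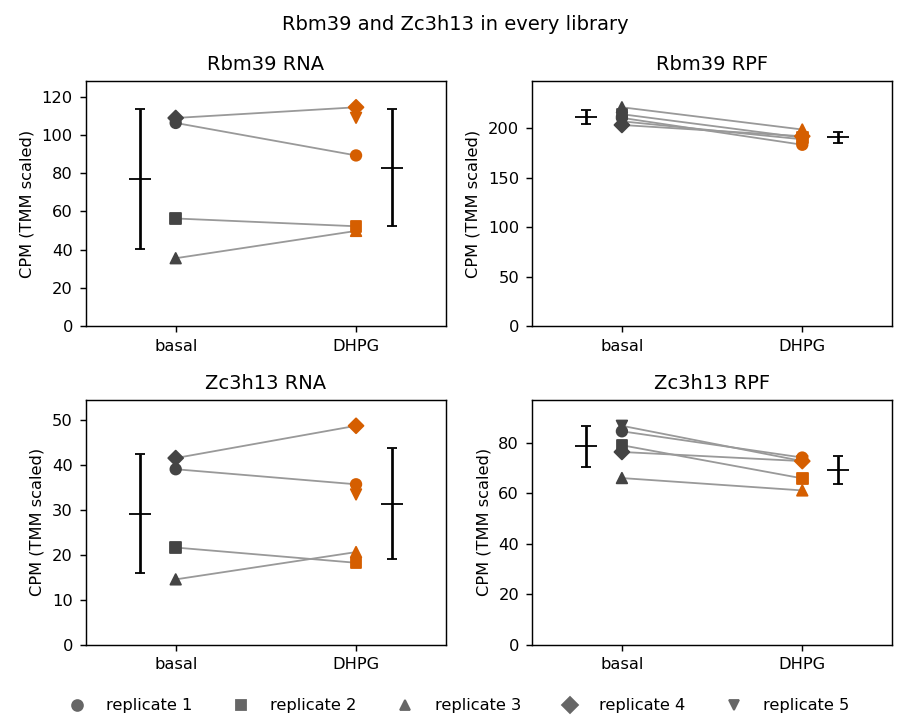
CPM (y axis from 0, TMM scaled) of Rbm39 (top) and Zc3h13 (bottom) in RNA (left) and RPF (right), basal and DHPG on the x axis. Symbols are replicates, lines join the libraries of 1 replicate, and the bar with whiskers beside each group is its mean and SD. Rbm39 RPFs do not overlap between treatments (183 to 199 against 203 to 221 CPM), while RNA of both genes is lowest in replicates 2 and 3.

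Relatives of Rbm39 are set beside it here by their RPF log2 fold changes. Rbm25 had -0.08, and the spliceosome subunits Rbm17 and Rbm22 had -0.08 and 0.01. The tumour suppressors Rbm5, Rbm6 and Rbm10, which share a domain layout and act at splice site choice, had -0.08, -0.07 and -0.26. In rank Rbm39 was only the sixth lowest of 42 Rbm members. Outside the family, U2af2 (the U2AF large subunit) had -0.07, Puf60 -0.02 and Sf3b1, the core of the U2 snRNP, -0.02. In RNA these 9 relatives ranged from -0.10 for Rbm5 to 0.09 for Rbm10. The paralog Rbm23 was not analysed here.

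Zc3h13 anchors the m6A writer complex in the nucleus. The gene lies on chromosome 14 of GRCm38 from 75284373 to 75344426 on the plus strand. Its RPFs were 84.7, 79.1, 66.1, 76.5 and 86.9 CPM in basal and 74.2, 66, 61.2, 72.8 and 72.8 after DHPG, lower in 5 of 5 pairs by -0.07 to -0.26, with overlapping groups. The log2 fold change was -0.18 (standard error 0.04), the lowest of 18 Zc3h members. Its RNA was 39, 21.6, 14.5 and 41.5 CPM in basal and 35.6, 18.2, 20.6, 48.6 and 33.4 after DHPG, a log2 difference of 0.10 ± 0.11 (SE) with an adjusted p of 0.857 and 2 of 4 pairs higher. The RNA groups overlapped, and replicates 2 and 3 were again the lowest. Its basal ratio was 1.02 ± 0.59, the fourth highest in the family.

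Among zinc finger relatives, Zc3h4 and Zc3h6 had RPF log2 fold changes of -0.15 and -0.16, Zc3h15 -0.09, Zc3h7a -0.07, Zc3h11a -0.06 and Zc3h14 -0.02. Zc3h18, which links the nuclear exosome to capped RNA, had -0.00 and Zc3h7b 0.04. Partners of Zc3h13 in the m6A writer did not share 1 value. Rbm15b had -0.17 and was lower in 5 of 5 pairs, with basal RPFs of 16.7 to 25.1 CPM and 14 to 21.6 after DHPG, whereas its relative Rbm15 had 0.03. The catalytic subunit Mettl3 had -0.01, its partner Mettl14 -0.04, the adaptor Wtap 0.03, the scaffold Virma (listed as 1110037F02Rik) -0.05 and Cbll1 0.00. In basal ratio the writer subunits were spread as widely, from -2.04 for Rbm15b, -0.89 for Virma, -0.69 for Rbm15 and -0.53 for Mettl3 to 0.96 for Wtap, 2.55 for Cbll1 and 3.02 for Mettl14.

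The change in the RPF to RNA ratio after DHPG was tested as an interaction in 1 edgeR model. Of 13320 genes 0 passed an adjusted p of 0.05 (0%), and 0 of 91 members did. An unadjusted p under 0.05 was found for 8 members with a lower and 2 with a higher ratio, beside 3.57% and 3.06% of all genes (6.63% in either direction). The difference lay below 0 for 50 members, beside 50.4% of all genes. The log2 differences of Rbm39 and Zc3h13 were -0.17 (standard error 0.09) and -0.28 (0.11), and that of Rbm39 was -0.06 without replicate 3. Rbm10 (-0.34) and Zc3h4 (-0.36) had lower values, and Srsf4 had -0.30 with its RNA higher in all 4 pairs. These values rest on the RPF contrast above.

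Other genes of splicing and RNA methylation, from 9 lists with 137 genes in the tables, gave 0 calls in RPF and 40 of 136 above 0, with a median log2 fold change of -0.03. An unadjusted p under 0.05 was found for 16 lower and 5 higher genes, where all genes gave 4.21% and 6.55%, and 48.6% of all genes lay below 0. The list medians were -0.07 for the Prp19 complex (1 of 12 above 0) and for SR protein kinases (1 of 8). The exon junction complex (1 of 7) and m6A writers and readers (3 of 13) had -0.04. Other splicing regulators (12 of 34) had -0.03 and SR-related proteins (6 of 20) -0.025. U1, U2 and U2AF (5 of 19) had -0.02, the Sm core (3 of 8) -0.02 and U4/U6 and U5 (8 of 15) 0.00. Basal ratios of these lists were led by the Sm core, the ring of small proteins on each snRNA, at 2.45 ± 0.12. In edgeR's test 8 of its 8 genes were higher than the median gene, beside 39.2% of all genes. SR protein kinases had -0.20 ± 0.34.

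Markers checked the tissue. No listed marker of hippocampal neurons, interneurons, glia or endothelium was at 0 in all libraries, and pan-excitatory markers summed to 3224 to 5528 CPM in basal RNA. After DHPG 3 of 3 pan-excitatory, 3 of 3 dentate granule and 6 of 7 pyramidal neuron markers were higher in RNA. Their median log2 fold changes were 0.07, 0.08 and 0.10. In RPF the counts were 3 of 3, 2 of 3 and 3 of 7 (medians 0.035, 0.01 and -0.02). Of 6 interneuron markers 5 were lower in RNA (median -0.08). In RPF 3 of these 6 were higher, and 1 of the 6 passed the threshold. Over all genes 0.22% passed the RPF threshold in either direction, and 48.6% lay below 0 in RPF and 47.9% in RNA. Earlier results of these data were known for Prkcd, Shox2, Tcf7l2, Zic1, Slc17a6, Tnnt1, Calb2, Pdp1 and Adarb1 of the thalamus list. Counts of that list are therefore a description. In RPF 15 of 16 thalamus markers tested were higher after DHPG (6 past the threshold, median log2 fold change 0.26). Their summed levels were 478 to 582 CPM in basal and 499 to 680 in DHPG libraries. In RNA 13 of 14 thalamus markers were higher, and 1 passed the RNA threshold, beside 0.00773% of all genes. Their median was 0.34, and the list summed to 423 to 553 CPM in basal and 485 to 647 after DHPG. Oligodendrocyte markers were higher for 5 of 6 in RPF (1 past the threshold, median 0.09, 3987 to 8416 CPM in basal and 4592 to 9449 after DHPG) and 6 of 6 in RNA (median 0.17). In RPF 5 of 5 astrocyte markers (median 0.05) and 5 of 5 microglia markers (median 0.09) were higher. In RNA 4 of 5 astrocyte markers (median 0.03) and 3 of 5 microglia markers (median 0.001) were higher. Of the 4 endothelial markers 4 were lower in RPF (median -0.13, 24.1 to 36 CPM in basal and 21.3 to 34.4 after DHPG) and 3 in RNA (median -0.10). The part of tissue composition in the members' RPF values was not tested.

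Members with too few counts were 9 in RNA and 5 in RPF. Rbmy, a Y-linked gene of the germline, had no count in any library, and Rbmxl2 had 1. Zc3h12d and Rbm44 had at most 2 counts in any library. Rbm4, which overlaps the readthrough Rbm14-rbm4, had 17 counts in 1 basal RPF library and at most 1 in every other. Rbm38, Rbm46, Rbm47 and Zc3h8 fell short in RNA only, with up to 11, 6, 12 and 14 counts per library.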

How the data were processed

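RNA-seq and RPF libraries of wild-type hippocampal slices were analysed (19 samples, grouped by their titles). Per the labels and the study's methods, slices were lysed and the lysate cleared by centrifugation, so nuclei were largely removed. The authors trimmed adapters (cutadapt), removed rRNA and tRNA reads (Bowtie2), aligned the rest to mm10 (TopHat2), kept unique reads without duplicates and quantified genes with RSEM. The deposited values are its expected counts, rounded, for RPFs on coding sequences without 30 nt at each end and for RNA on whole transcripts. A further 12 columns, of replicates 6 to 8, match no sample and were not used.

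CPM, fold changes and ratios were computed here in R 4.3.3 with edgeR 4.0.16 (TMM, filterByExpr, quasi-likelihood F test, Benjamini-Hochberg adjustment over all genes; adjusted p of 0.01 in RNA and 0.05 elsewhere), DESeq2 1.42.0 and sva 3.50.0 as alternatives. Every adjusted p is from edgeR unless DESeq2 is named. Log2 CPM used a prior count of 2. Lengths, positions and windows came from GENCODE M21 (GRCm38), which matched 96 of 96 members and 98.84% of all genes. Replicate number was a block, because libraries of the same number deviated together (correlations of 0.308 to 0.741 in RNA and 0.259 to 0.523 in RPF, although basal RNA 2 reached 0.467 with a DHPG library of another number). The numbers are in the labels, and the study calls them batches and biological replicates.

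Members and lists were chosen with earlier results of these data known. Named genes were Rbm39 and Zc3h13, the extremes of RNA level and basal ratio in each family, members past a threshold, the 5 of smallest p in each direction that moved alike in every pair, fixed relatives, and members with few counts. Alternatives were other size factors, filters, tests and thresholds, no block, no length offset, a prior count of 0.5, DHPG libraries in place of basal ones, removal of trends with GC content and length, ComBat, and replicates left out.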

Additional observations from a re-analysis of the deposited data

Results flagged for a closer look

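Of 120 groups of libraries screened for 1 value far from the rest, 1 was found, and chance gives about 1 in 20. Srsf10 RNA had 8.9 CPM in the DHPG library of replicate 3, where the other DHPG libraries had 17.6 to 19.8. The basal library of the same replicate had 12.9 CPM, also the lowest of its group.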

How the results depend on the processing

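Alternatives without both replicates 2 and 3, and with at most 10% shared windows, were chosen after seeing the data. Causes of the changes below were not tested. Of members called in RNA, ComBat with DESeq2 gave 1 in place of 0 (beside 2.34% of all genes with an adjusted p). Of members called in RPF, 2 in the reported fit, 0 remained with no replicate block, 0 in DESeq2 with the block (which gave an adjusted p to 9 of 91 members, Rbm39 and Zc3h13 not among them), 0 at an adjusted p of 0.01, 0 without replicates 2 and 3, 1 with the trend in GC content and length removed and 7 with ComBat and DESeq2 (of 45 members with an adjusted p, beside 10.3% of all genes with one), and leaving out 1 replicate gave 0 to 2. With no filter on low counts there were 3. The Rbm39 RNA log2 fold change of 0.03 was -0.0777 without replicates 2 and 3 and ranged from -0.0844 (without replicate 3) to 0.14 with 1 replicate left out. The Srsf RNA median was 0.0176 with no replicate block and 0.029 with the GC and length trend removed. The Rbm RPF median was -0.0269 with that trend removed, and the Zc3h RPF median -0.00335 without replicates 2 and 3. For the basal ratio, the Srsf median was 1.56 with no length offset and 1.17 with at most 10% shared windows, and the Rbm median 0.56 in DHPG libraries. The Zc3h median was 0.0082 with no length offset, -0.27 with at least 10 counts in every library and -0.23 in DHPG libraries. With no replicate block 73 members differed from the median gene in basal ratio, beside 74 with it. The median RNA level of members was 19.96 CPM per kb of coding length, beside 10.9 per kb of transcript. Members called in the ratio change after DHPG stayed at 0 in each alternative run. Short footprints, unique mapping and 4 or 5 libraries a group limit small differences and genes with pseudogenes.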
